A study of Mus musculus with 24 samples.

Results

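Induced DP cells were compared with induced VE sp cells, 2 of the 4 fractions sorted from mouse embryoid bodies at day 6. The comparison used 6 of the 24 Illumina arrays of the study. The members were the arrays whose titles give the induced condition and the DP fraction (replicates 1, 2 and 3) or the VE sp fraction (replicates 1, 2 and 3), matched by replicate number.

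Embryoid bodies are the aggregates in which embryonic stem (ES) cells differentiate in culture. The starting cells were mouse ES cells, line Ainv15, in which doxycycline switches on ICN1 (the part of the receptor Notch1 that acts inside the cell). In both groups ICN1 was induced between day 3 and day 5, and the cells were dissociated, sorted and lysed for RNA at day 6. The same fractions of embryoid bodies without induction (3 arrays each) were used for 1 further comparison. Because doxycycline accompanied every induction, ICN1 and the drug itself cannot be told apart. All cells came from a single engineered line. The names of the fractions (CD41 sp, VE sp, DP and DN) are not spelled out in the labels, which also do not say whether replicates were separate cultures. P-values therefore rest on sample-to-sample spread that may be technical.

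As background, VE-cadherin (Cdh5) is the junction protein that marks endothelium, and CD41 (Itga2b) is the integrin chain carried by platelets and by the earliest blood progenitors of the embryo. In the embryo, blood arises from a specialised, haemogenic endothelium, and cells in that passage carry both proteins for a time while endothelial genes are lost and blood genes are gained. Runx1 is required for the passage. Notch signalling, which runs through cleavage of the receptor and release of its intracellular domain, is needed for the arterial endothelium from which definitive blood stem cells emerge.

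Gene levels are given as log2 of the normalised array intensity, and a difference is the DP level minus the VE sp level on that scale, with its standard error (SE). A gene was called when its adjusted p was under 0.05 in limma's moderated test with the replicate number as a block (Benjamini-Hochberg adjustment over 9591 genes). A probe was detected on an array when its deposited detection p was under 0.05.

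The sort markers followed the names of the fractions. Itga2b read 11.07, 11.15 and 11.76 on the DP arrays and 9.48, 9.30 and 9.67 on the VE sp arrays. All 3 DP arrays lay above all 3 VE sp arrays, by 1.84 ± 0.23 (adjusted p = 3.59e-06). Cdh5 was detected in both groups, at 8.74, 8.83 and 9.87 in DP and at 10.15, 10.58 and 11.12 in VE sp. The groups did not overlap, and Cdh5 was lower in DP by 1.47 on the log2 scale (difference -1.47 ± 0.21, adjusted p = 1.55e-05). Of the 10 endothelial markers all 10 were lower in DP, and their summed signal ran from 18300 to 19300 in DP and from 47800 to 55900 in VE sp. Blood markers summed to 16900 to 19200 in DP and 4090 to 4700 in VE sp, and megakaryocyte markers to 5070 to 8780 and 919 to 1010. The 6 measured blood markers and the 6 megakaryocyte markers were all higher in DP. Itga2b is a member of both of these lists and Cdh5 of the endothelial list, so the sort markers are part of these counts and sums. Ptprc, the pan-leukocyte antigen CD45, did not pass the filter on dim probes. In bulk samples fewer cells of a type and less RNA per cell cannot be told apart.

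Markers of other cells were also compared. Of the 7 erythroid markers 3 were higher in DP and none lower, and their summed signal ran from 6620 to 17800 in DP against 5400 to 9350 in VE sp. The 4 mesenchymal markers summed to 118 to 152 in DP, where Pdgfra, Col1a1 and Col3a1 were not detected on any array, and to 195 to 322 in VE sp, where Col1a1 was not detected. Cardiac, endoderm and pluripotency markers summed to at most 73.3 in either group, and none of those measured was called. Of the smooth muscle markers 1 of 2 measured was lower (49.6 to 105 in DP, 124 to 243 in VE sp), and of the epithelial markers 1 of 3 (147 to 293 and 249 to 645). The part of these cells in the differences below was not tested.

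**Figure D1:**
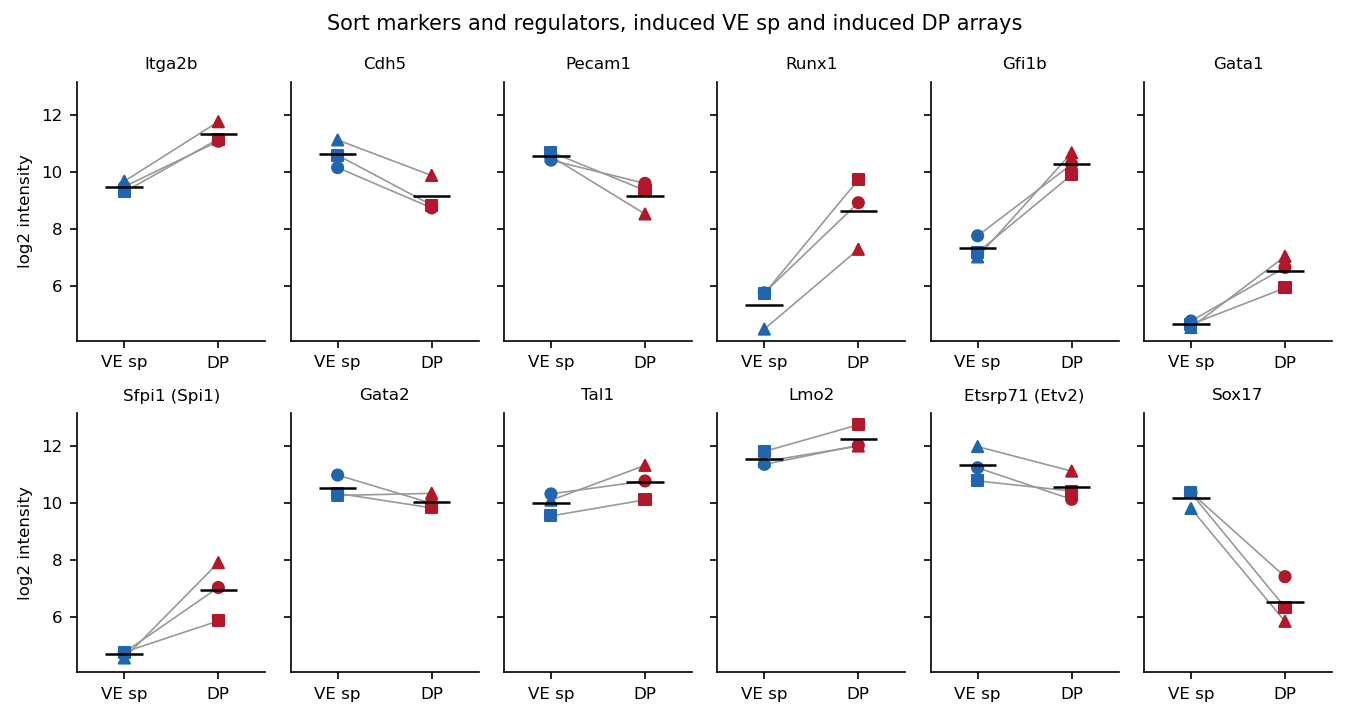
Normalised log2 intensity (vertical axis) of the 2 sort markers and 10 regulators on the 3 induced VE sp arrays (blue) and the 3 induced DP arrays (red); circles, squares and triangles are replicates 1, 2 and 3, grey lines join equal numbers and black bars are group means. Itga2b, Runx1, Gfi1b, Gata1 and Sfpi1 lay higher in DP in every pair, Cdh5, Pecam1 and Sox17 lay lower, and Gata2 overlapped between the groups.

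The third DP array stood apart. Its array weight, a measure of how well an array follows the fitted model, was 0.18, the lowest of the 24, against 0.96 and 0.80 for DP 1 and DP 2 and 0.77 to 2.08 for the VE sp arrays. Counts that lead a paragraph and counts of the gene lists are therefore also given without it. Mean raw intensity ran from 198 to 491 over the DP arrays and from 271 to 656 over the VE sp arrays, and 43.2% to 51.0% of probes were detected on these 6 arrays.

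Promoter sequence is shown first because factors of the RUNX, GATA and ETS families are themselves among the genes that differed, and the letters they read can be searched there. RefSeq promoter windows of 300 bases (250 before to 50 after a start, build GRCm38.p6) were available for 78 of the 99 genes called more than 4-fold higher in DP, for 124 of the 202 called more than 4-fold lower, and for 7445 of the 9591 tested. The letters AGGAAG, an ETS-type sequence, stood on either strand in 62.8% of the higher genes, 39.5% of the lower genes and 37.2% of all tested. TGTGGT, the RUNX core, stood in 25.6%, 17.7% and 14.9%. AGATAA, read by the GATA factors, stood in 17.9%, 10.5% and 7.7%. TGGGAA, read by the Notch partner RBPJ, stood in 32.1%, 25.8% and 27.1%, and ACAATG, a SOX sequence, in 5.13%, 8.06% and 8.97%. CACGTG, an E-box, stood in 10.3%, 8.87% and 11.9%. These shares are descriptions with no test; a gene with several annotated starts had several windows, and a match is not a bound site.

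The 150 bases just before the start are printed below for 5 genes higher in DP and 2 lower in DP, chosen after the matches were seen; of a gene's windows the one with most matches is shown. Capitals mark the RUNX, GATA and ETS letters on either strand. The sequences run 5′ to 3′ on the strand of the gene. Was (chrX:8090492-8090641, minus strand) holds a RUNX match and an ETS match, and Tspan32 (chr7:143004896-143005045, plus strand) holds 2 of each. Gp5 (chr16:30310782-30310931, minus strand) holds 2 GATA matches and an ETS match. In F2rl2 (chr13:95696770-95696919, plus strand) the ETS and GATA letters adjoin. Ikzf1 (chr11:11690027-11690176, plus strand) holds 3 ETS matches. Notch4 (chr17:34564145-34564294, plus strand) and St6gal1 (chr16:23224590-23224739, plus strand) were lower in DP. Both hold an ETS match all the same, and St6gal1 also holds a GATA match.
Was: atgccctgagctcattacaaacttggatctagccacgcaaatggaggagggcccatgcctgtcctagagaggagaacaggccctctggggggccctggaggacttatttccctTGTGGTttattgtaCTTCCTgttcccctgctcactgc
Tspan32: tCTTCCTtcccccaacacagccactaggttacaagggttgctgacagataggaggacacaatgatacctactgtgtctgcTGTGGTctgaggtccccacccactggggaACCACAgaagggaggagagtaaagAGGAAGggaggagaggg
Gp5: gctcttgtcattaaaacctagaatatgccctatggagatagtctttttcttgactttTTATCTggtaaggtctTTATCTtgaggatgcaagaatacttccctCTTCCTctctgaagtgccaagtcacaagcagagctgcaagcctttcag
F2rl2: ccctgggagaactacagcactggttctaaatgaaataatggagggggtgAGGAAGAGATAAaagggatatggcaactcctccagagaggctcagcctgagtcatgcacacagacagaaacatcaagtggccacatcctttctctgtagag
Ikzf1: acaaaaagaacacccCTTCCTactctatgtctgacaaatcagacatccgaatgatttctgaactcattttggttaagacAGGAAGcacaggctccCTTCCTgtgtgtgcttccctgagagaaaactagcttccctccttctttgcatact
Notch4: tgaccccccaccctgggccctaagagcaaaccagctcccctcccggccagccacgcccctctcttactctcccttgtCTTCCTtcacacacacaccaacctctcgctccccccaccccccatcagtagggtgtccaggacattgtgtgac
St6gal1: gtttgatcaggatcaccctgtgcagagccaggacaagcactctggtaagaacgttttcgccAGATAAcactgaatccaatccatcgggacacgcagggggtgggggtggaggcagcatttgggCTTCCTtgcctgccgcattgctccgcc

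Many of the measured genes differed between the fractions. Of 9591 genes, 3559 (37.1%) were called, 1852 higher in DP (19.3%) and 1707 lower (17.8%); without DP 3 the numbers were 3086, 1470 and 1616. The median difference over all genes was 0.05. Large differences were more often losses, with 765 genes lower and 407 higher by more than 2-fold, and 202 lower and 99 higher by more than 4-fold. The sign was the same in all 3 pairs for 3487 of the 3559. For 2859 genes (29.8%) the 3 DP arrays did not overlap with the 3 VE sp arrays. Without the replicate block the number called was 1709 (17.8%), with 705 higher (7.35%) and 1004 lower (10.5%). Scaling each array to a common median in place of quantile normalisation left 1155, of which 369 were higher, so the share of higher genes among the calls was 52%, 41.3% and 31.9% in the 3 fits.

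Among the 15 largest rises were genes known from blood cell signalling, platelets and myeloid cells. Sla, which encodes an adaptor that dampens antigen receptor signalling, read 11.35, 11.05 and 11.26 in DP and 6.56, 5.63 and 5.72 in VE sp. It was higher in DP in every pair, by 5.25 ± 0.35 (adjusted p = 1.72e-09); 2 other Sla probes gave 1.67 and 2.20. The chemokine Ccl3 read 9.42, 9.46 and 9.64 in DP, while no VE sp array detected it and its signal there was 4.34, 4.39 and 4.40. The DP level was at least 23.2-fold higher (adjusted p = 7.31e-10). Such a bound sets the DP mean against the dimmest detected signal of the VE sp arrays, or the gene's own signal where that is higher. By the same measure the chemokine Ccl9 was at least 11-fold and the kinase Btk at least 9.88-fold higher (adjusted p = 2.87e-10 and 5.27e-10).

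Plek, the platelet substrate of protein kinase C, read 11.04, 11.90 and 10.44 in DP against 6.33, 7.12 and 5.94 in VE sp. Its difference was 4.66 ± 0.26 (adjusted p = 3.98e-10). The pairs ran parallel, with replicate 2 highest in both fractions. F13a1, the catalytic chain of coagulation factor XIII, was higher by 4.54 ± 0.28, and the lysozyme gene annotated Lyz, now Lyz1, by 4.14 ± 0.19. Lyz1 has a near-identical neighbour, Lyz2, measured as Lyzs and also higher, so the probes may share signal. Was, the actin regulator lost in Wiskott-Aldrich syndrome, was higher by 3.71 ± 0.21, with 11.22, 11.38 and 10.63 in DP against 8.03, 7.42 and 6.64 in VE sp.

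Other rises among the 15 largest were Slco4a1, Dok2, Cxcl4 (Pf4, platelet factor 4), Slc35d3, Coro1a and Tspan32, between 3.62 and 4.83. Cxcl4 varied most among the DP arrays, at 8.65, 10.73 and 8.997, yet lay above the VE sp values of 5.52, 5.93 and 5.31. Tspan32 varied least, at 9.60, 9.64 and 9.58 in DP. The second Slco4a1 probe gave -0.14 and was not called, so the 2 probes of this organic anion transporter disagree.

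Among the 15 largest falls were Emcn, Cldn5, Nos3 and Sox17, which are known from endothelium. Emcn, the endothelial sialomucin endomucin, read 8.66, 6.78 and 5.80 in DP against 11.44, 11.27 and 11.48 in VE sp. The difference was -4.32 ± 0.48 (adjusted p = 7.29e-07); the VE sp arrays lay close together and the DP arrays were spread widely, with DP 1 highest. Cldn5, the tight junction claudin of endothelium, read 9.38, 8.01 and 7.82 in DP against 11.75, 12.48 and 12.95 in VE sp, a difference of -3.99 ± 0.39 (adjusted p = 1.75e-07). Nos3, endothelial nitric oxide synthase, was lower by -3.91 ± 0.36, and its 2 other probes gave -3.90 and -3.62.

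Sox17, an endodermal and arterial transcription factor, read 7.43, 6.35 and 5.86 in DP and 10.38, 10.36 and 9.82 in VE sp, with a difference of -3.64 ± 0.35. Also among the 15 largest falls were the probe annotated Mrg1, an older symbol not matched to a single current one, the cathepsin Ctsh and the homeobox gene Nkx2-3. The others were the sialyltransferase St6gal1, Emid2 (now Col26a1), the Notch-related Dlk1, Fmo1, Mogat2, the endocytic adaptor Dab2, Fblim1 and Pi16. All of these lay between -4.10 and -3.50, and each was lower in all 3 pairs.

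The size of the loss differed between replicates. Pair 1 gave the smallest difference for all 15 of the largest falls, for 81.7% of the 202 genes more than 4-fold lower, and for 42.3% of all genes tested. DP 1 had the highest level of the 3 DP arrays for 70.8% of those 202 genes and for 24.1% of all genes. The median difference over the 202 genes was -2.07 in pair 1, -2.83 in pair 2 and -2.79 in pair 3. Among the 99 genes more than 4-fold higher, pair 1 was the smallest for 63.6%.

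**Figure D2:**
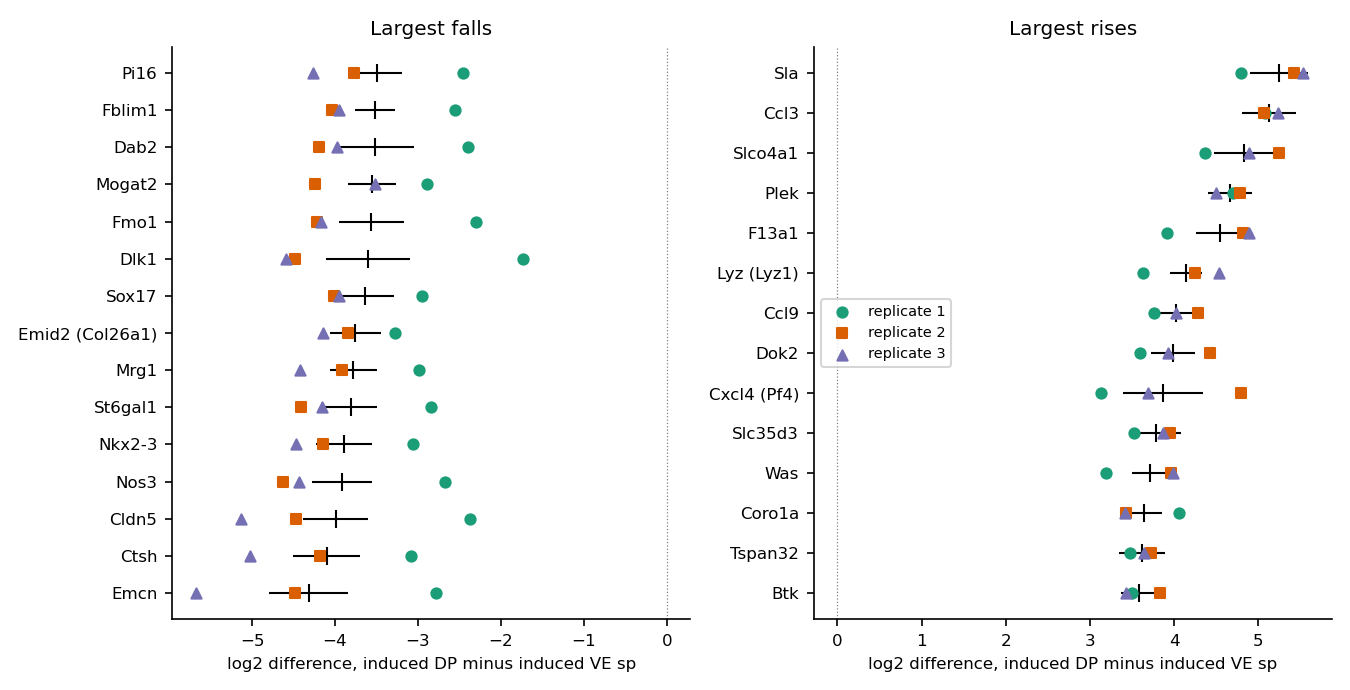
Differences (log2, DP minus VE sp) of the 15 genes with the largest falls (left) and of the named genes with the largest rises (right); coloured symbols are the 3 same-numbered pairs and the black mark with its bar is the fitted difference with its SE. In the left panel the symbol of replicate 1 lies nearest to 0 for all 15 genes, while the 3 replicates lie closer together in the right panel.

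Endothelial genes were lower in DP almost throughout the list. Of 37 measured pan-endothelial genes 35 were lower and 2 higher, with a median difference of -1.48, and the count without DP 3 was the same. Icam2, an endothelial adhesion molecule, was at 8.40, 7.77 and 8.001 in DP and at 11.01, 11.47 and 12.16 in VE sp, a difference of -3.49 ± 0.32 (adjusted p = 7.65e-08). Mmrn2, a matrix glycoprotein of endothelium, gave -3.47, the angiogenic factor Sox7 -3.21 and the adhesion molecule Mcam -2.98.

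Receptors that define endothelium fell less. Pecam1, the junction molecule CD31, read 9.60, 9.35 and 8.52 in DP against 10.41, 10.69 and 10.54 in VE sp (-1.39 ± 0.25, adjusted p = 2.18e-04), and Tek, the angiopoietin receptor, gave -1.36 and Tie1 -0.84. The pan-endothelial genes higher in DP were Cd47, the integrin-associated protein (1.10 ± 0.18), and Exoc3l2 (1.33 ± 0.22), measured by a clone probe that RefSeq places under that symbol. Kdr, the VEGF receptor, was on the arrays but was detected on only 1 of these 6, a VE sp array, and was not tested.

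Arterial genes showed the lowest median of the 33 lists, -1.64, with 16 of 24 lower and none higher, also without DP 3. Foxc2, a forkhead factor of arterial and lymphatic vessels, read 6.57, 5.16 and 5.39 in DP against 9.10, 8.95 and 8.85 in VE sp (-3.27 ± 0.30, adjusted p = 9.06e-08). The netrin receptor Unc5b gave -2.82, the connexin Gja5 -2.54 with detection on 2 of 3 DP arrays, and the ephrin Efnb2, the classic arterial marker, -2.28 ± 0.29. Of the venous and lymphatic list, 8 of 12 were lower and none higher, also without DP 3, with a median of -1.23; Emcn, Dab2, Gap43 (-3.45), Mrc1 (-2.92) and the venous receptor Ephb4 (-1.52) were among them. No venous or arterial gene measured was called higher.

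The Notch receptors expressed in endothelium were lower in DP. Notch4, the endothelial receptor whose promoter is printed above, read 8.21, 7.90 and 7.51 in DP against 10.81, 11.55 and 10.95 in VE sp, without overlap. The difference was -3.23 ± 0.26 (adjusted p = 1.55e-08), and its second probe gave -1.50. Notch1 read 8.66, 8.82 and 9.11 in DP against 10.13, 10.96 and 10.56 in VE sp (-1.69 ± 0.20, adjusted p = 1.74e-06). The sources used here do not say whether the Notch1 probe also reads the induced ICN1 transcript.

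Notch3, the receptor of mural cells, gave -1.33 ± 0.24. Notch2 was detected on no DP array and on 2 VE sp arrays, and was not called. The ligand Dll4 was not detected on any DP array and read 5.46, 5.40 and 5.52 in VE sp; VE sp was at least 1.41-fold higher (adjusted p = 2.35e-04, measured means 4.49 and 5.46). The ligand Dll1 was lower by -0.88 (adjusted p = 0.0601 without the block), and the ligands Jag1 (0.14) and Jag2 (-0.15) were not called. Across receptors, ligands and processing genes 10 of 24 were lower and none higher, with a median of -0.20; without DP 3 the count was 10 lower and 1 higher.

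Among targets of the pathway more were called lower in DP than higher. Hey1, a direct target and repressor, read 11.29, 9.53 and 10.41 in DP against 12.96, 12.05 and 12.69 in VE sp (-2.16 ± 0.31, adjusted p = 1.78e-05). Its relative Hey2 also gave -2.16, and was detected on 2 of 3 DP arrays. Hes1, the best known target, read 7.72, 6.56 and 7.33 in DP and 8.05, 7.36 and 7.87 in VE sp; the groups overlapped and the difference of -0.56 ± 0.26 was not called (adjusted p = 0.105).

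Nrarp, a feedback inhibitor of the pathway, was lower by -0.79 ± 0.20 (adjusted p = 0.00371, and 0.116 without the block). Myc (1.01 ± 0.21), the cell cycle inhibitor Cdkn1a (0.71) and Hes6 (0.58) were higher in DP. Cdkn1a was not called without the block (adjusted p = 0.0691) or without DP 2 (0.47, adjusted p = 0.112). Of 16 measured target genes 8 were lower and 3 higher, and the median was -0.67, with the same counts without DP 3. Over all genes 17.8% were lower and 19.3% higher, so the higher targets were near the share of all genes. After median scaling 7 targets were lower and 0 higher.

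**Figure D3:**
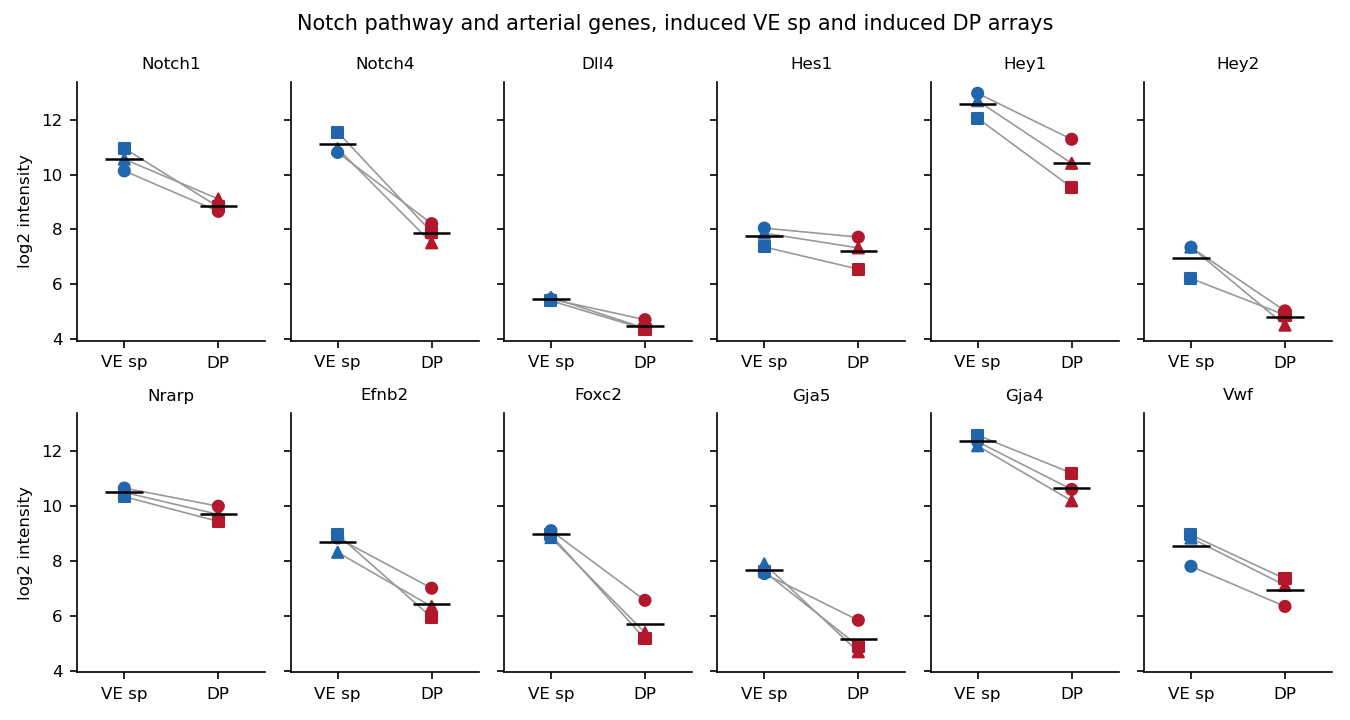
Normalised log2 intensity (vertical axis) of 12 Notch pathway, arterial and endothelial genes on the induced VE sp (blue) and induced DP (red) arrays; circles, squares and triangles are replicates 1, 2 and 3, and black bars are group means. Notch4, Hey1, Efnb2, Foxc2 and Gja5 drop in all 3 pairs, whereas the Hes1 values of the groups overlap.

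Of the transcription factors of early blood, 18 of 30 were higher in DP and 4 lower (17 and 3 without DP 3), with a median of 0.73. Runx1 read 8.92, 9.72 and 7.28 in DP against 5.76, 5.73 and 4.49 in VE sp, where it was detected on 2 of 3 arrays. The difference was 3.31 ± 0.33 (adjusted p = 2.37e-07); the third replicate was lowest in both fractions. Gfi1b, the repressor that acts after Runx1 in blood emergence, read 10.26, 9.90 and 10.66 in DP against 7.76, 7.18 and 7.02 in VE sp (2.96 ± 0.25, adjusted p = 3.16e-08). Nfe2, a factor of platelet formation, was higher by 3.10 ± 0.20, and Ikzf1 (Ikaros), a lymphoid and myeloid regulator, by 2.58 ± 0.22.

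Gata1 and Sfpi1 were detected on all 3 DP arrays and on no VE sp array. Gata1, the erythroid and megakaryocyte factor, read 6.65, 5.93 and 7.04 in DP, with detection on 0 of 3 VE sp arrays; it was at least 2.97-fold higher (adjusted p = 2.99e-06, means 6.54 and 4.66). Sfpi1 (now Spi1), the myeloid factor PU.1, read 7.05, 5.88 and 7.92 and was also not detected in VE sp, which gave at least 3.95-fold (adjusted p = 3.10e-06, means 6.95 and 4.71). DP 2 was the lowest of the DP arrays for both.

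Smaller differences were measured for other factors of the list. Tal1 (0.75 ± 0.18, adjusted p = 0.00283) and its partner Lmo2 (0.71 ± 0.14, adjusted p = 5.77e-04) were slightly higher in DP, and neither was called without the block (adjusted p = 0.108 and 0.0701). Gata2 read 9.999, 9.84 and 10.35 in DP and 10.99, 10.35 and 10.28 in VE sp, and its difference of -0.47 ± 0.27 was not called (adjusted p = 0.182). Fli1 (-0.12) and Cbfb (-0.24), the partner of Runx1, were not called either.

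The members lower in DP were Hoxb4 (-1.74 ± 0.30), Evi1 (now Mecom; -1.57), Etsrp71 (now Etv2, the early regulator of endothelial and blood fate; -0.77 ± 0.22) and Ldb1 (-0.46). Etsrp71 and Ldb1 were not called without the block (adjusted p = 0.149 and 0.108). Myb, the regulator of definitive progenitors, read 6.71, 6.57 and 4.92 in DP and 5.04, 4.9 and 5.4 in VE sp. Its groups overlapped, the third pair went the other way, and the call (0.95 ± 0.32, adjusted p = 0.0246) was lost in 10 of 17 other settings.

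Megakaryocyte and platelet genes were higher for 24 of 38 measured and lower for 2, with a median of 0.97 (0.91 with undetected genes at their bound). Gp5, a chain of the von Willebrand factor receptor, read 7.61, 9.15 and 8.46 in DP against 4.70, 5.12 and 5.10 in VE sp (3.44 ± 0.27, adjusted p = 1.27e-08). Its complex partners Gp9 (2.88) and Gp1ba (1.99) were higher too, as were the thrombin receptor F2rl2 (2.96 ± 0.34) and the cyclooxygenase Ptgs1 (3.18 ± 0.29). The members lower in DP were F2r (-0.77) and Vwf (-1.59 ± 0.37), the von Willebrand factor of platelets and endothelium. Neither was called without the block (adjusted p = 0.105 and 0.0522). The count without DP 3 was 21 higher and 4 lower.

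Erythroid genes moved less. Of 36 measured 10 were higher in DP, 1 was lower and 25 were not called, with a median of 0.35. Without the block 5 were higher, and without DP 3 the count was again 10. Over all genes 19.3% were higher and 17.8% lower, and without the block 7.35% were higher. The embryonic globin Hbb-bh1 read 13.16, 13.65 and 12.28 in DP against 11.58, 12.45 and 11.98 in VE sp, so the groups overlapped (1.03 ± 0.23, adjusted p = 0.00134). The globins Hba-x (0.07 ± 0.41) and Hbb-y (0.72 ± 0.33) were not called. Both were high on DP 1 and DP 2 and low on DP 3, with Hba-x at 11.69, 11.27 and 9.23. The transferrin receptor Tfrc (1.70), carbonic anhydrase Car2 (1.67) and the erythroid factor Klf1 (1.64) were higher.

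Myeloid genes were higher for 15 of 23 and lower for 2 (16 and 2 without DP 3), with a median of 1.95, or 1.40 with undetected genes at their bound. Mpo, the neutrophil peroxidase, read 10.88, 9.76 and 10.60 in DP against 7.83, 6.81 and 7.14 in VE sp (3.15 ± 0.22, adjusted p = 4.03e-09), and its 2 other probes gave 2.98 and 2.00. Lyzs (now Lyz2) was not detected in VE sp and was at least 5.31-fold higher (adjusted p = 2.07e-09, means 7.38 and 4.52). The actin-bundling Lcp1 was lower, by -1.65 ± 0.36, with DP 3 at 4.69 well below 6.64 and 6.31; Lsp1 (-0.48, adjusted p = 0.0462) was the other, and its call was lost in 14 of 18 other settings.

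Signalling adaptors and enzymes of blood cells were higher for 23 of 26 (22 without DP 3) and lower for Prkcb (-2.28) and Grap (-1.26), with the highest median of the 33 lists, 2.08. Sla, Dok2, Was and Btk led them, and the exchange factor Vav1 (2.79), the scaffold Lcp2 (2.42) and the phosphatase Hcph (now Ptpn6; 2.12) followed. Of 18 blood progenitor receptors 8 were higher and 1, the chemokine receptor Cxcr4, was lower (8 and 2 without DP 3). Cxcr4 was not detected on any DP array and was at least 1.69-fold higher in VE sp (adjusted p = 0.0153, and 0.0897 without the block; means 4.54 and 5.72); Cd34, the progenitor sialomucin, was higher by 0.87 ± 0.20. Only 5 of 20 lymphoid genes and 2 of 13 mast cell genes passed the filter on dim probes, and none of them was higher.

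**Figure D4:**
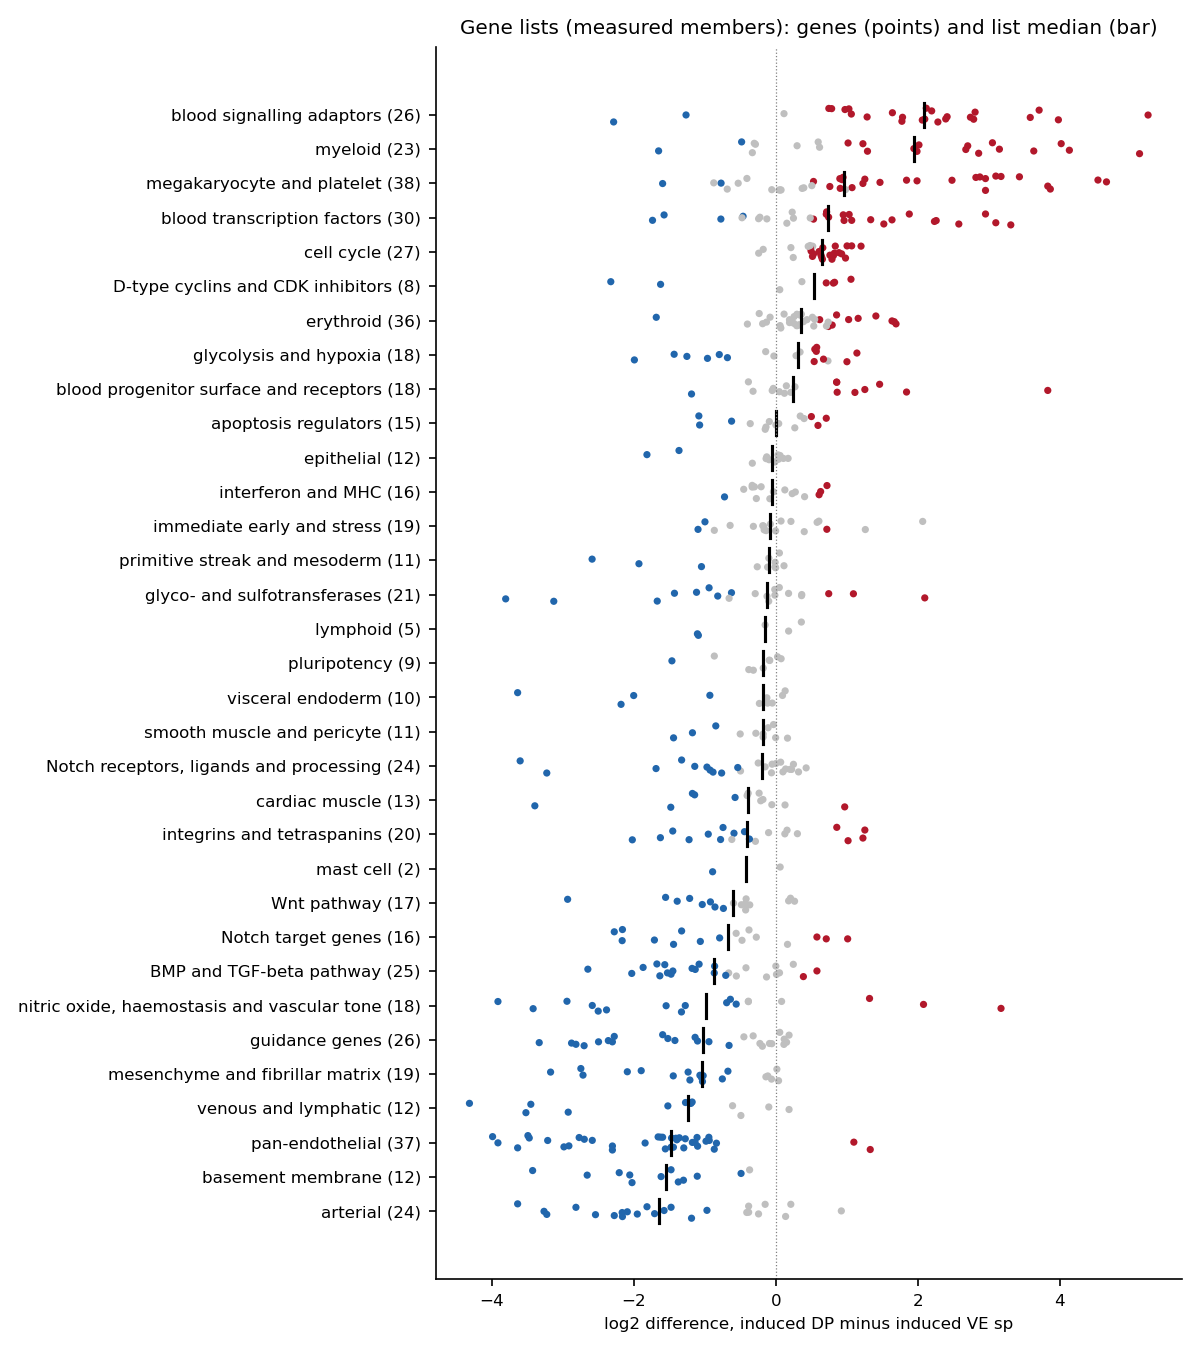
Differences (log2, DP minus VE sp) of the measured members of the 33 gene lists, 1 point per gene, with red for called higher, blue for called lower, grey for not called, and a black bar at the list median; the number of measured members follows each name. The lists of blood signalling adaptors (median 2.08), myeloid and platelet genes lie to the right, and the arterial (median -1.64), basement membrane and pan-endothelial lists lie to the left.

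Matrix genes were lower together. All but 1 of the 12 measured basement membrane genes were lower, with a median of -1.55 (10 lower without DP 3); the exception, Col15a1 (-0.37 ± 0.20), was not called. Nid1, which links laminin to collagen IV, read 7.11, 6.18 and 6.66 in DP against 9.57, 9.91 and 10.75 in VE sp (-3.43 ± 0.36, adjusted p = 3.98e-07). The collagen IV chains Col4a1 and Col4a2 gave -2.66 and -2.21. Of 19 mesenchymal and fibrillar matrix genes 14 were lower (13 without DP 3) and none higher (median -1.05, or -0.77 with bounds), led by the microfibril gene Fbn1 (-3.17 ± 0.28); Col1a1, Dcn and Lum were detected on none of the 6 arrays.

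Signals that shape vessels followed the same direction. Of 26 guidance genes 15 were lower and none higher, also without DP 3 (median -1.02), with the ephrin Efna1 (-3.33 ± 0.28), the semaphorin Sema3f (-2.88) and the receptor Robo1 (-2.70) lowest. Of 25 genes of the BMP and TGF-beta pathway 15 were lower and 2 higher (14 and 1 without DP 3; median -0.87). Its targets Idb3 (now Id3) and Idb1 (now Id1), which block basic helix-loop-helix factors, gave -2.65 ± 0.32 and -1.87 ± 0.25, and the receptors Tgfbr2 -2.03, Acvrl1 -1.47 and Eng -0.87. The 2 higher, Tgfb1 (0.58) and Tgfbr1 (0.39), were not called without the block (adjusted p = 0.291 and 0.263). Of 17 Wnt genes 8 were lower (11 without DP 3) and none higher (median -0.60).

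In the list of nitric oxide, haemostasis and vascular tone, 12 of 18 were lower and 3 higher (11 and 3 without DP 3). Beside Nos3, the natriuretic peptide receptor Npr3 (-3.42 ± 0.27), caveolin Cav1 (-2.94) and endothelin Edn1 (-2.38) were lower. The 3 higher were Ptgs1 and both subunits of soluble guanylate cyclase, the enzyme that senses nitric oxide: Gucy1a3 (now Gucy1a1; 2.08 ± 0.31) and Gucy1b3 (1.32). The synthase and the sensor of nitric oxide therefore differed in opposite directions.

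Cell cycle genes were modestly higher. Of 27 measured, 20 were higher and none lower, with a median of 0.65, and without DP 3 the count was again 20. Over all genes 19.3% were higher. Ccnb1, the mitotic cyclin B1, read 12.26, 12.22 and 11.29 in DP against 11.02, 11.02 and 10.13 in VE sp (1.203 ± 0.14, adjusted p = 1.34e-06). Its groups did not overlap, and replicate 3 was lowest in both fractions. Without the block 6 of the 27 were called higher, against 7.35% of all genes. After median scaling 1 of the 27 was called higher, against 369 of all 9591 genes, and the list median was then 0.63. The inhibitor Cdkn1c (p57), a brake on division, read 12.21, 11.74 and 11.74 in DP against 13.86, 14.27 and 14.53 in VE sp (-2.32 ± 0.23, adjusted p = 1.42e-07), and the cyclin Ccnd1 was lower by -1.62 ± 0.33. Other inhibitors went the other way: Cdkn2a (1.06), Cdkn2d (0.81) and Cdkn1a (0.71) were called higher. So was the cyclin Ccnd3 (0.83), but its other probes gave 0.21 and -0.32 and were not called. The list of 8 D-type cyclins and CDK inhibitors gave 4 higher and 2 lower, against 19.3% and 17.8% over all genes. Without the block 1 was called higher, and after median scaling 0.

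The comparison was repeated without induction. The non-induced DP and VE sp fractions share no array with the induced ones. Both comparisons come from 1 fit, with the same replicate block and the same estimate of each gene's spread. The 2 sets of calls are therefore not independent. Without induction 2064 genes were called (21.5%), 966 higher (10.1%) and 1098 lower (11.4%). Of these, 1676 were also called in the induced comparison with the same sign, and 3 with the opposite sign, while 1880 of the 3559 genes called with induction were not called without it. The median size of the difference over all genes was 0.338 with induction and 0.245 without. The induced minus non-induced difference itself was called for 59 genes (0.615%), 25 with a higher (0.261%) and 34 with a lower value (0.354%); 1292 had an unadjusted p under 0.05. The difference was larger in size with induction for 50 of the 59. This count rested on the block and on single arrays. It was 2 without the block, 1 after median scaling, 2 in a fit of the compared arrays alone, and 3 to 76 when 1 array was left out. The lowest were 3 without non-induced DP 2 and 6 without non-induced DP 1, followed by 25 without non-induced DP 3, 25 without non-induced VE sp 1 and 32 without non-induced VE sp 2. Without induced VE sp 1, 2 or 3 the count was 26, 29 or 25.

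Prkcb, the protein kinase C beta of blood cells, had the smallest p. It read 7.30, 7.48 and 7.44 in induced VE sp and 5.36, 4.92 and 5.09 in induced DP, a difference of -2.28 ± 0.18. Without induction the means were 4.94 ± 0.23 in DP and 4.88 ± 0.31 in VE sp (SD, n = 3), a difference of 0.06 ± 0.18. Both means lay near background, where a difference can go unseen. Btk, detected on no non-induced VE sp array, had a mean of 4.68 there. The induced and non-induced differences of Prkcb differed by -2.34 ± 0.26 (limma, adjusted p = 1.99e-04, and 3.51e-04 without the block). Over the other settings this change ran from -2.685 to -1.474. Corin, a peptide-activating protease, was the other gene called with and without the block. It was detected on no non-induced array of either fraction, on all 3 induced VE sp arrays and on 1 induced DP array, at -2.31 ± 0.37 (adjusted p = 0.0126; 0.0385 without the block).

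For Vwf the sign was opposite. The induced difference was -1.59 ± 0.37 and the non-induced difference 1.19 ± 0.37, with VE sp at 8.53 ± 0.63 with induction and at 5.44 ± 0.11 without (SD, n = 3). DP stood at 6.94 ± 0.53 and 6.64 ± 0.84. The change of the difference was -2.79 ± 0.52 (adjusted p = 0.0226; 0.564 without the block). Npr3, the clearance receptor of natriuretic peptides, was lower in DP in both conditions, by -3.42 with induction and by -1.21 without (adjusted p of the change 0.0163; 0.248 without the block).

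Among the lists, 3 pan-endothelial genes were called for the change: Vwf, Sox18 (-1.204 ± 0.26) and Bcl6b (-1.03 ± 0.23). Gja4, an arterial connexin, differed by -1.71 with induction and by 0.07 without, a change of -1.77 ± 0.38 (adjusted p = 0.0392; 0.652 without the block). The semaphorin Sema7a (-1.47 ± 0.31) went the same way. No member of the Notch lists was called for the change: Notch4 gave -3.23 with induction and -2.38 without (adjusted p of the change 0.313), Hey1 -2.16 and -3.27 (0.259), and Efnb2 -2.28 and -2.50 (0.849).

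In the other direction, Was differed by 3.71 with induction and 2.33 without, a change of 1.38 ± 0.30 (adjusted p = 0.0433; 0.9998 without the block). Srm, the spermidine synthase, Lyar, a nucleolar growth regulator, and Exosc2, an RNA exosome subunit, were higher in DP by 1.02, 1.00 and 1.01 with induction and stood at -0.06, -0.08 and 0.03 without. Col15a1, a collagen of basement membranes, was lower in DP by -1.76 without induction and gave -0.37 with it, and the glypican Gpc3 gave -1.67 and -0.43.

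**Figure D5:**
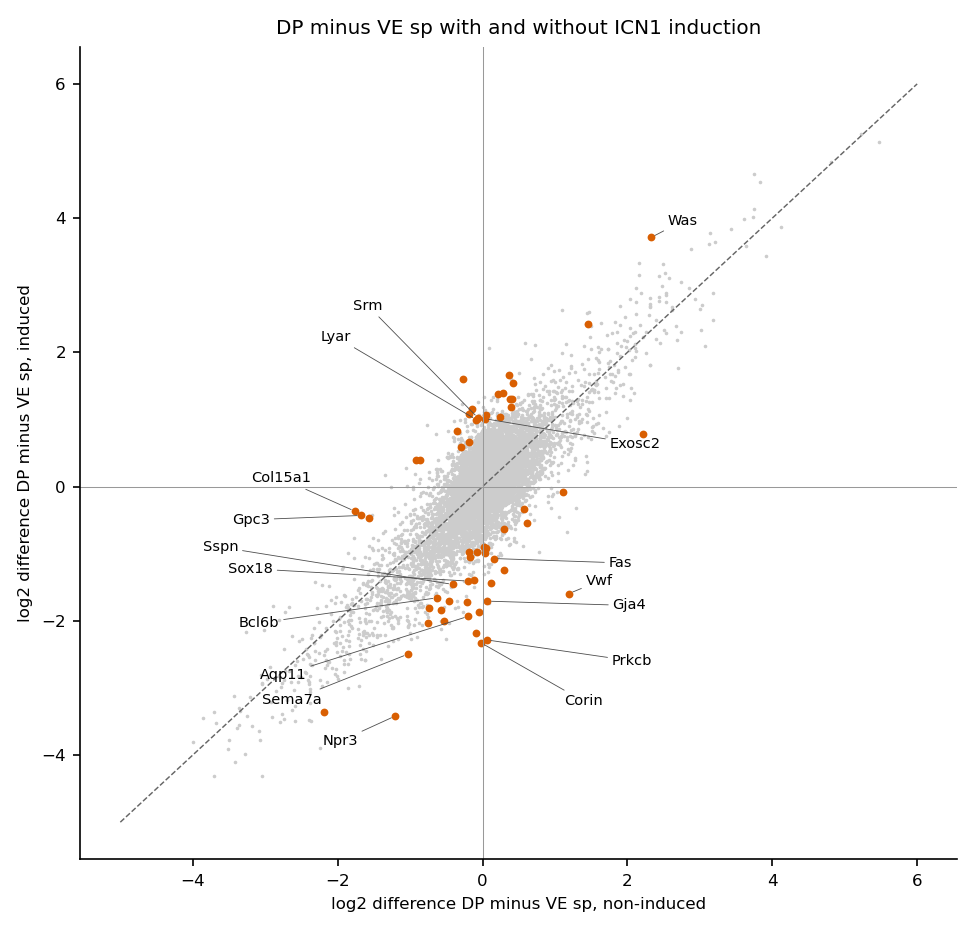
Difference (log2, DP minus VE sp) of 9591 genes without induction (horizontal axis) and with ICN1 induced (vertical axis); orange points are the 59 genes whose difference itself changed by limma, 17 of them named, and the dashed line marks equal differences. Prkcb and Corin lie near 0 on the horizontal axis and below -2 on the vertical axis, and Vwf lies in the quadrant of opposite signs.

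The DP fraction was also set beside the induced CD41 sp fraction, as a description with no test because the DP arrays enter both differences. For 180 of the 202 genes more than 4-fold lower in DP the DP mean lay between the CD41 sp and VE sp means (89.1%). For the other 22 the DP mean lay below both. By their selection these genes could not lie above both, while 2374 of all 9591 genes tested did. The share in between among all genes, 54.4%, is therefore no like-for-like baseline for the 89.1%. Among genes with DP in between, Emcn stood at 11.40 in VE sp, 7.08 in DP and 4.79 in CD41 sp, and Cdh5 at 10.62, 9.15 and 4.79. Of the 99 genes more than 4-fold higher, which by their selection could not lie below both, the DP mean lay between the others for 42 and above both for 57. Ccl3 stood at 9.51 in DP and 8.03 in CD41 sp, and Lyz at 9.67 and 6.99, while Gata1 stood at 6.54 and 9.06.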

How the data were processed

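Gene expression was measured on Illumina bead arrays in 24 samples: 2 conditions, 4 sorted fractions and 3 replicates. The authors deposited 3 tables of probe intensity, 1 for each replicate number, not normalised per the file headers, and with a detection p-value beside each intensity; a processed table of linear signal intensity with scale and centring unstated served as an alternative, and its columns had medians of 59.9 to 78.7. The header of each raw table names a single day, so the number was taken to mark a shared day. Deviations from the group means correlated by 0.288 to 0.773 between same-numbered samples and by -0.623 to 0.098 between others. The number was therefore kept as a block. The number of arrays limits the precision.

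From the intensities, limma 3.58.1 in R 4.3.3 was run. neqc (normexp on the detection p, offset 16, quantile) gave log2 values. Probes with a detection p under 0.05 on every array of 1 group or more were kept (12894 of 25697 probes), and the brightest probe stood for a symbol (9591 of 18120 genes). lmFit and eBayes were fitted to all 24 arrays with 8 group means and the block (14 residual degrees of freedom). Data were simulated for this comparison with 67, 67 and 66 genes changed by 0.5, 1 and 2 on the log2 scale. Of these 13.4%, 85.1% and 100% were recovered, with 5 false calls among 9391 unchanged genes. The simulation drew independent normal noise around the fitted model and changed far fewer genes than the 37.1% called in the data. Its rates hold for that setting only. Symbols are those of the arrays; 9275 of the 9591 were matched to a current symbol in RefSeq.

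The 2 groups, the 33 lists and the tests were chosen with earlier results of these data known. The text names 23 genes always given, the 15 largest rises and 15 largest falls with 1 sign in all pairs (clone names passed over), the 10 smallest p-values of the induced minus non-induced difference, and up to 4 called members of each list in each direction; the genes added beyond this rule were chosen after their values were seen. A gene among the largest rises is not reported here. Alternatives were no block, median scaling, no background correction, the processed table, other detection filters, array weights, only the arrays compared, single probes, a trended robust prior, and each array or replicate set left out.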

Additional observations from a re-analysis of the deposited data

Results flagged for a closer look

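For 17 named genes the DP minus VE sp difference itself differed between induced and non-induced embryoid bodies (limma, change in log2, adjusted p under 0.05). The change was negative for Vwf (-2.79), Prkcb (-2.34), Corin (-2.31), Npr3 (-2.21), Gja4 (-1.77), Aqp11 (-1.74), Sema7a (-1.47), Fas (-1.23), Sox18 (-1.20), Sspn (-1.05) and Bcl6b (-1.03). It was positive for Col15a1 (1.39), Was (1.38), Gpc3 (1.24), Srm (1.08), Lyar (1.08) and Exosc2 (0.98). Aqp11, an intracellular aquaporin, read 6.15, 5.32 and 6.60 in induced DP and 8.04, 7.34 and 8.49 in induced VE sp, and its non-induced difference was -0.20 ± 0.16. Fas, the death receptor, was lower in DP by -1.07 with induction and stood at 0.16 without. Of the 17, only Prkcb and Corin were also called without the replicate block.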

How the results depend on the processing

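The number of genes called between induced DP and VE sp moved with the replicate block and the scaling. Without the replicate block it was 1709 (705 higher, 1004 lower), after median scaling 1155 (369 and 786), and in a fit of the compared arrays only 2022 (894 and 1128). It ran from 2288 to 3425 when an array or a replicate set was left out, with 1126 to 1842 higher and 1162 to 1616 lower; the lowest was without replicate set 1. The number of genes with a changed difference between induced and non-induced cells (59, with 25 higher and 34 lower) was 2 (0 and 2) without the block and 2 (0 and 2) in the compared arrays only. It was 1 (0 and 1) after median scaling, which moved the median of this change over all genes to -0.27 from -0.02, 30 (12 and 18) with every probe on its own, 93 (38 and 55) without background correction and 143 (69 and 74) with array weights. With arrays or replicate sets left out it ran from 0 to 76, with 0 to 33 higher and 0 to 52 lower; the 0 came without replicate set 2. The cause was not tested. Of 203 called genes that the naming rule gives or the text adds, 142 stayed called in every setting and 43 were lost without the block; none changed sign. Of the 17 genes named for a changed difference, none was called in every setting and none changed sign. Of 1188 list counts in 18 settings, 1032 stayed within 1.5 times. List medians near 0 (apoptosis, epithelial, immediate early, interferon, pluripotency, primitive streak) changed sign in 1 to 7 settings, and no other list did. Genes near background, such as Dll4 and Gata1, have only a bound on their difference.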

Other observations

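Some families had members called in each direction. Over all genes 19.3% were called higher and 17.8% lower, and the first 2 families below were near or under that share of higher members. Among 20 integrins and tetraspanins 4 were higher in DP, and 10 were lower (3 and 10 without DP 3). The higher were Cd9 (1.26), the platelet chain Itgb3 (1.23, adjusted p = 0.0716 without the block), the leukocyte chain Itgb2 and Itgb7. Itgb2 and Itgb7 were not detected in VE sp and were at least 1.61-fold and 1.33-fold higher (adjusted p = 0.00288 and 0.0289, means 5.66 and 4.64, and 5.38 and 4.52). Itgb7 was detected on 2 of 3 DP arrays, and its call was lost without DP 3 (0.29, adjusted p = 0.279) and in 11 of 18 settings in all. The lower included Kai1 (now Cd82; -2.02), Itga3 (-1.62), Itga1 (-1.45) and Itgb5 (-1.22). Among 21 sugar and sulfate transferases, the core fucosyltransferase Fut8 (2.101 ± 0.16) was higher and the sialyltransferase St6gal1 (-3.81 ± 0.32) was lower, with 3 higher and 8 lower in all (3 and 7 without DP 3). Glycolysis and hypoxia genes gave 7 higher and 6 lower of 18 (5 and 5 without DP 3): the hexokinase Hk2 (1.14 ± 0.16) was higher, while Eno2 (-1.99 ± 0.18), Vegfa (-1.43 ± 0.16) and the glucose transporter Slc2a1 (-1.25 ± 0.25) were lower. After median scaling these lists had 2 and 4, 1 and 5, and 1 and 3 members called higher and lower.

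Over all genes 19.3% were higher and 17.8% lower, and several lists were near or below these shares. Immediate early genes, which respond to handling, gave 1 higher and 2 lower of 19 (1 and 1 without DP 3). Interferon and MHC genes gave 3 higher and 1 lower of 16, with 0 and 1 without DP 3 and 0 of each without the block. Apoptosis regulators gave 3 of each among 15 (4 and 3 without DP 3). Visceral endoderm genes gave 4 lower of 10, among them Apoe (-2.0015) and Gata6 (-2.18). The lowest was Sox17 (-3.64), which is also in the arterial list. Cardiac genes gave 1 higher and 5 lower of 13 (0 and 4 without DP 3), with Isl1 (-3.39 ± 0.37), a progenitor factor, the lowest. Epithelial genes gave 2 lower of 12, smooth muscle and pericyte genes 3 of 11 (4 without DP 3), primitive streak genes 3 of 11, pluripotency genes 1 of 9, lymphoid genes 2 of 5, mast cell genes 1 of 2, and D-type cyclins with CDK inhibitors 4 higher and 2 lower of 8. For the lists of this paragraph with no value given, the counts were the same without DP 3.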
